A study of Mus musculus with 48 samples.

Results

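The 5 Fc receptor genes Fcgr1, Fcgr2b, Fcgr3, Fcgr4 and Fcer1g were followed in 4 sorted immune cell populations of mouse colon tumours and in 2 genotypes. The 5 were taken by name from the 24538 rows of the count table, and all 5 were found. They held 92250 of 13126899 counts (0.703%). Poly(A) RNA was read near its 3′ end in bulk. All mice had been given AOM DSS (the carcinogen azoxymethane and dextran sulfate sodium, an agent that inflames the colon), and all samples are labelled day 85. Cells were sorted on Ly6C, which marks blood monocytes, and on the antigen-presenting molecule MHC class II into Ly6Chi MHCIIhi, Ly6Chi MHCIIlo, Ly6Clo MHCIIhi and Ly6Clo MHCIIlo. Each population was taken from mice labelled ctrl and from mice labelled ko, where the series names Ccl17, a chemokine gene, as the gene knocked out. The series speaks of ko mice housed with or apart from controls, but housing is not labelled per sample, and the sources used here give neither the deleted part of Ccl17 nor whether a replicate is 1 animal or a pool. Age and strain are not labelled. If replicates are not separate animals, the p-values measure only the spread between these samples.

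Fc receptors bind the constant part of antibodies and let myeloid cells take up or react to whatever the antibodies have coated. Fcgr1, Fcgr3 and Fcgr4 encode activating receptors for IgG: Fcgr1 the high-affinity receptor, Fcgr3 the broadly expressed low-affinity one, and Fcgr4 a receptor for IgG2a and IgG2b. They signal through the common gamma chain, the product of Fcer1g, which carries the ITAM that the kinase Syk docks on. Fcgr2b encodes the one inhibitory IgG receptor of the mouse, which carries an ITIM and recruits the phosphatase SHIP1, so macrophages are often described by the balance of activating and inhibitory receptors.

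In GENCODE M21 (GRCm38) 4 of the 5 genes lie within 276 kb of chromosome 1. Fcgr2b spans 170958617 to 170976547 on the minus strand, Fcgr4 171018920 to 171029761 on the plus strand, Fcgr3 171051174 to 171064935 on the minus strand and Fcer1g 171229572 to 171234365 on the minus strand. Fcgr1 lies apart on chromosome 3, at 96282909 to 96293969 on the minus strand. Fcgr2b and Fcgr3 encode closely similar extracellular parts, and the sources used here do not say how reads matching both were counted, so values of this pair are uncertain to that extent.

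The 250 bases before the RefSeq start (GRCm38.p6) are shown for Fcgr4, which differed most between populations, for Fcgr1, which lies on the other chromosome, and for Fcgr3, the one gene not called where the other 4 were. Capitals mark GAGGAA on either strand, a purine box of the kind that PU.1, the master factor of myeloid cells, binds.
Fcgr4, chr1:171018676-171018925, plus strand: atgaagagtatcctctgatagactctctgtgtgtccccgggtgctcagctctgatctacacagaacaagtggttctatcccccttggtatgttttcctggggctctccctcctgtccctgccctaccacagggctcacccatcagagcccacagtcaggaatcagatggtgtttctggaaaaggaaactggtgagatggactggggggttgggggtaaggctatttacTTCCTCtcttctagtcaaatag
Fcgr1, chr3:96293970-96294219, minus strand: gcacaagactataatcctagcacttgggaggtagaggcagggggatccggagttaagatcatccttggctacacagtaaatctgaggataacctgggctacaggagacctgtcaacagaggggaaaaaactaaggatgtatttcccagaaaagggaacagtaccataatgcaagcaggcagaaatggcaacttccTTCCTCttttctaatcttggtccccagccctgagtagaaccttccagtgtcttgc
Fcgr3, chr1:171059395-171059644, minus strand: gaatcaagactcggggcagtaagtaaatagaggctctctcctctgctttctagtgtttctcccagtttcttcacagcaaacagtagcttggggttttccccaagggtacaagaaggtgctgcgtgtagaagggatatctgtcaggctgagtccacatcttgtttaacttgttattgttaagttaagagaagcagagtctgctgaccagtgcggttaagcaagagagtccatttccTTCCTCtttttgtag
The purine box is present in 1 copy in each of these 3 windows. By gene, 3 of 5 held it, and Fcgr2b and Fcer1g, whose windows are not printed, did not (Fcgr3 has a second start 9 bases away, whose window overlaps this one and holds the same match). Of all 32851 windows of the same length, 23.3% held it. The matches describe the letters only, and binding was not measured. The Fcgr3 window lies inside the longer GENCODE gene, with 27 of its bases in an exon. The Fcgr2b window also lies wholly inside its GENCODE gene, with 187 of its 250 bases in exons. The missing match in Fcgr2b therefore says nothing of the bases before the GENCODE start.

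The 48 libraries held 8409 to 500687 counts (median 280062.5). Libraries of 1 replicate were added, and the smallest library (Ly6Chi MHCIIhi ctrl replicate 2) was left out, which gave 39 replicates: 3 ctrl and 4 ko in Ly6Chi MHCIIhi, 8 and 8 in Ly6Clo MHCIIhi, and 4 and 4 in the other two. Ccl17 was at 170 ± 269 CPM (SD, n = 8) in Ly6Clo MHCIIhi ctrl and 3.22 ± 2.67 CPM (SD, n = 8) in ko, with ranges that overlapped (0 to 764 and 0 to 7.47 CPM), and at most 12.2 CPM on average in the other groups. Ly6c2 averaged 497 and 1230 CPM in the Ly6Chi populations and 26.3 and 41.4 CPM in the Ly6Clo ones, and Cd74, the chaperone of MHC class II, 9660 and 13900 CPM in the MHCIIhi populations and 1860 and 2470 CPM in the MHCIIlo ones. All 9 macrophage markers were counted in every group. One replicate stood apart by its cell markers: Ly6Chi MHCIIhi ctrl replicate 1, with 78264 counts, had a summed level of red cell markers of 239000 CPM, against 84.9 to 1710 CPM in the other 6 replicates of its population, and of neutrophil markers of 62900 CPM, against 525 to 2000 CPM. Levels, ratios and calls that involve Ly6Chi MHCIIhi are therefore given with and without it, while the interaction test and the search for the most alike genes include it.

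Levels are CPM, the share of a library's counts with library size scaled by TMM, and because reads come from the 3′ end and no length was used, levels are compared between samples of a gene and not between genes. Differences are log2 fold changes from edgeR's quasi-likelihood F test over all genes, with standard error (SE) and a Benjamini-Hochberg adjusted p, and a gene is called changed under 0.05. In bulk samples, fewer cells of a type and less RNA per cell cannot be told apart.

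**Figure D1:**
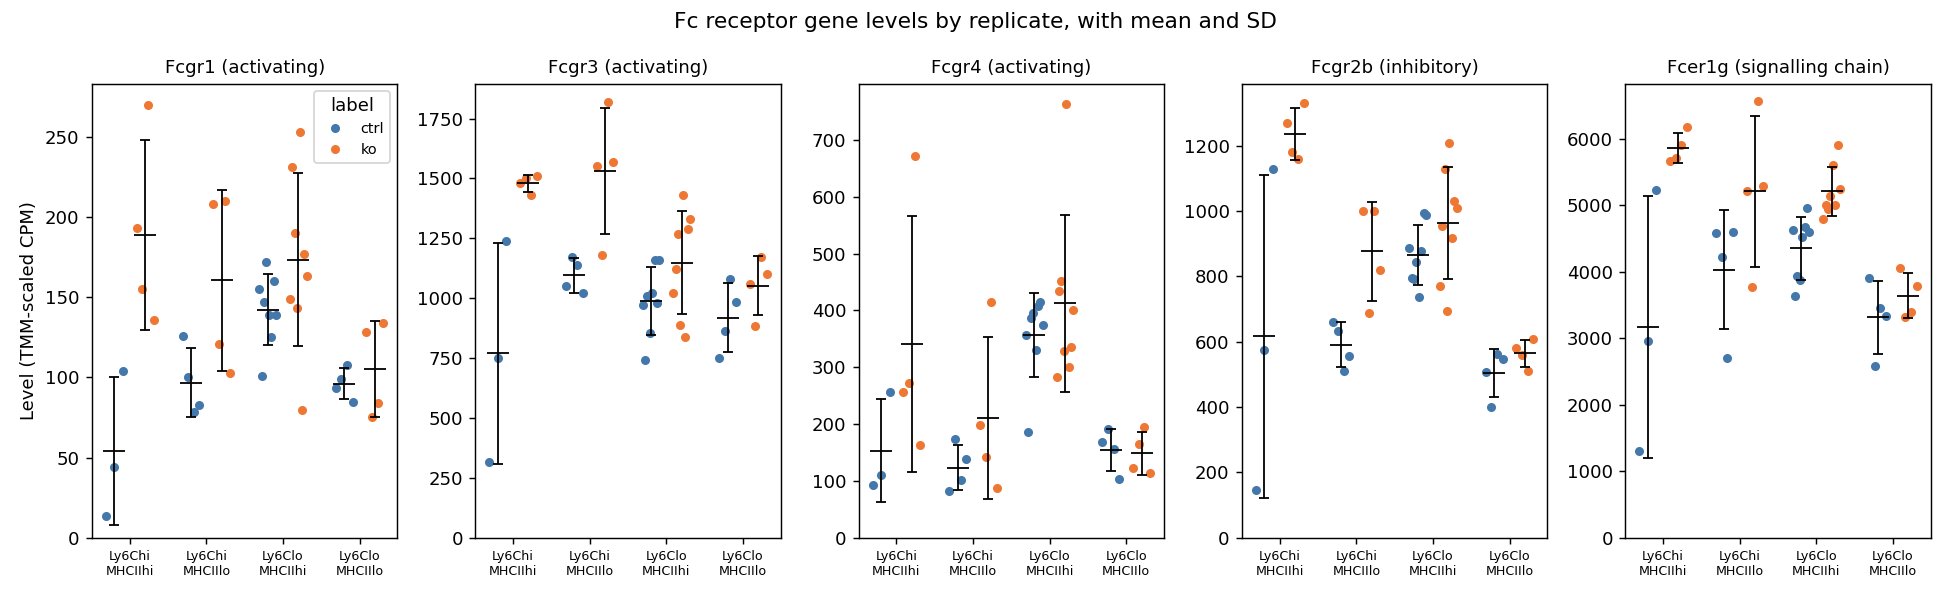
Level of each gene (TMM-scaled CPM, linear axis from 0) in each replicate of the 8 groups, blue for ctrl and orange for ko, with mean and SD. Fcgr4 stood at 186 to 764 CPM in Ly6Clo MHCIIhi and at 104 to 195 CPM in Ly6Clo MHCIIlo, and Ly6Chi MHCIIhi ctrl replicate 1 was the lowest of its population for all 5 genes.

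The clearest difference lay between the MHCIIhi and MHCIIlo populations of Ly6Clo cells. There 4 of 5 Fc receptor genes were higher in MHCIIhi and none was lower, where 27.6% of the 4341 genes tested were called, 13.3% higher and 14.3% lower. The median of the 5 differences was 0.54 on the log2 scale, against -0.00 over all genes tested. Fcgr3 was the one that was not called.

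Among the activating receptors, Fcgr4 had a lowest, median and highest level of 186, 381 and 764 CPM over the 16 Ly6Clo MHCIIhi replicates and of 104, 161 and 195 CPM over the 8 Ly6Clo MHCIIlo replicates. All MHCIIhi replicates but 1 lay above every MHCIIlo replicate. The difference was 1.23 (SE 0.16, adjusted p = 1.52e-06), a 2.35-fold higher level. Fcgr1 stood at 79.9, 152 and 253 CPM against 75.4, 96.2 and 134 CPM. Its groups overlapped, with 13 of 16 MHCIIhi replicates above all MHCIIlo ones, and the difference was 0.54 (SE 0.14, adjusted p = 0.00373). Fcgr3 stood at 744, 1020 and 1430 CPM against 749, 1020 and 1170 CPM. Its groups overlapped through most of their range, and the difference of -0.00 had a 95% interval of -0.18 to 0.18.

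The inhibitory receptor Fcgr2b separated the same 2 populations without overlap. Its lowest, median and highest levels were 693, 903 and 1210 CPM in Ly6Clo MHCIIhi and 401, 554 and 608 CPM in Ly6Clo MHCIIlo. The difference was 0.66 (SE 0.09, adjusted p = 4.73e-06), a 1.58-fold higher level. Fcer1g, the shared chain, stood at 3630, 4870 and 5910 CPM against 2580, 3420 and 4050 CPM. The groups overlapped in their tails, and the difference was 0.34 (SE 0.07, adjusted p = 0.00025). In ctrl replicates alone Fcgr4 (1.10, adjusted p = 0.00175) and Fcgr2b (0.67, adjusted p = 0.003) were still called, while Fcgr1 (adjusted p = 0.111) and Fcer1g (adjusted p = 0.102) were not. All 12 neutrophil markers were counted in both populations, and their summed level was 411 to 1970 CPM in Ly6Clo MHCIIhi and 5510 to 28100 CPM in Ly6Clo MHCIIlo. The 8 dendritic cell markers summed to 124 to 452 CPM and 26.6 to 105 CPM, also without overlap, with Xcr1 at 0 in Ly6Clo MHCIIlo. Of 3 tested B and plasma cell markers 1 was called higher in Ly6Clo MHCIIhi (list median 1.41). The sums of all 8 such markers overlapped, at 56.8 to 28100 CPM and 58.6 to 4470 CPM. The part of these marker sets in the differences was not tested.

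**Figure D2:**
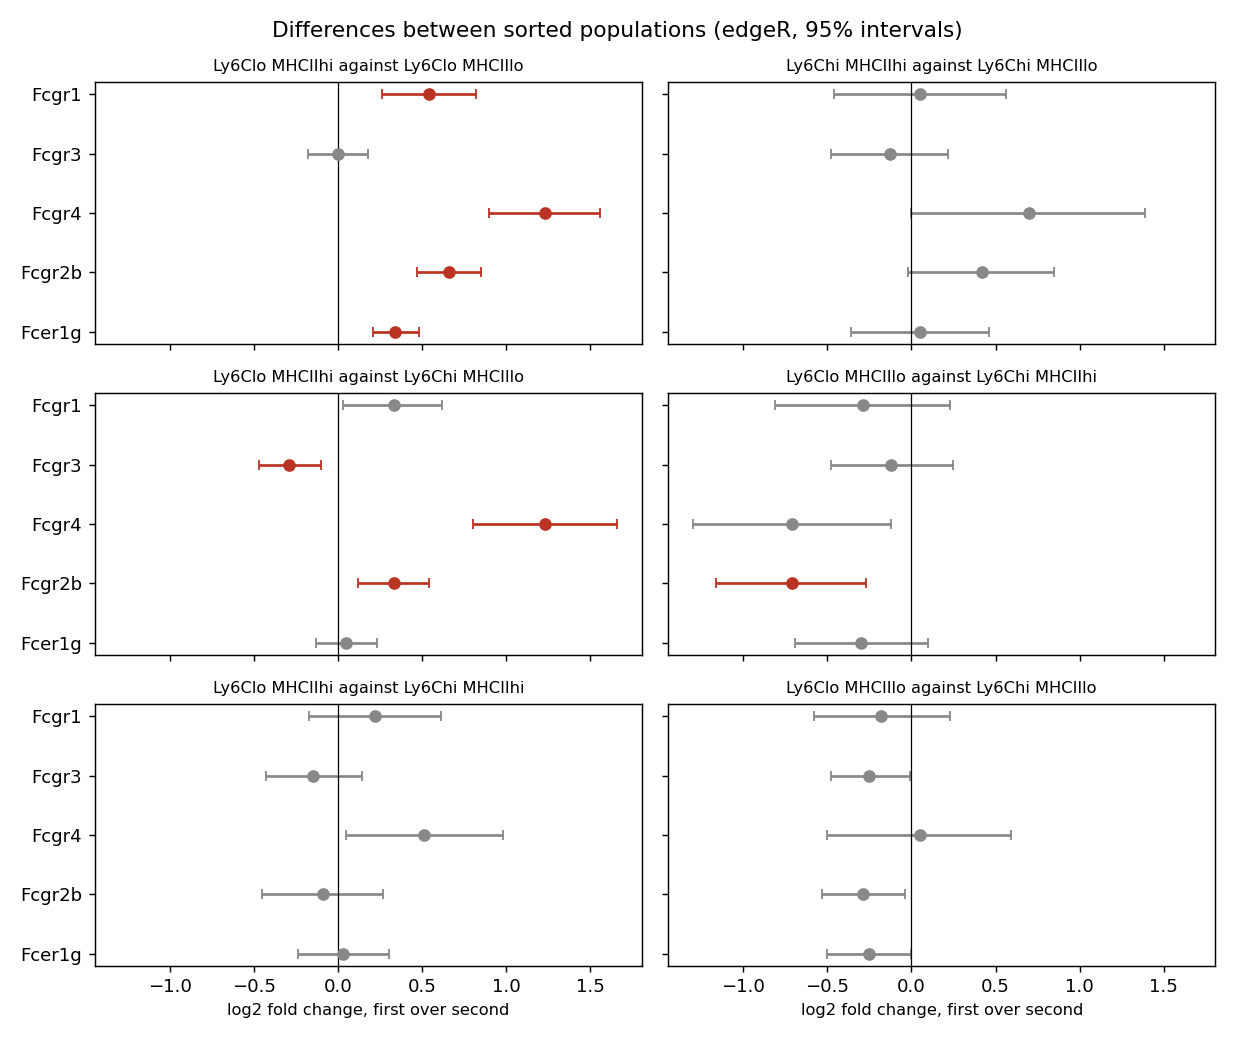
Log2 fold change of each gene between 2 populations (first over second) with its 95% interval, red where the adjusted p was under 0.05 and grey otherwise. The largest differences were those of Fcgr4 in Ly6Clo MHCIIhi against either MHCIIlo population, both 1.23.

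The same split within the Ly6Chi cells gave 0 of 5 called by edgeR, where 3.23% of 4117 genes were. None of the 5 had an unadjusted p under 0.05, where 16.1% of genes did, and DESeq2 also called 0. By edgeR Fcgr4 (unadjusted p = 0.0507) and Fcgr2b (unadjusted p = 0.0617) came near it. In simulated data a change of 1 on the log2 scale was recovered for 60% of genes here and for 90% in Ly6Clo cells. The count of 0 therefore does not show that the genes were equal. Fcgr4 was at 92.8, 257 and 672 CPM over the 7 Ly6Chi MHCIIhi replicates and at 81.5, 140 and 414 CPM over the 8 Ly6Chi MHCIIlo replicates. The groups overlapped widely, and the difference was 0.70 (SE 0.33, adjusted p = 0.312), and 0.75 (adjusted p = 0.235) without ctrl replicate 1. Fcgr2b was at 146, 1160 and 1330 CPM against 512, 675 and 1000 CPM. The lowest of these was ctrl replicate 1, and 5 of 7 replicates lay above all of MHCIIlo. Its difference was 0.42 (SE 0.21, adjusted p = 0.331), and without ctrl replicate 1 it was 0.59 with an adjusted p of 0.00488, so that 1 of 5 was called. Fcgr1, Fcgr3 and Fcer1g differed by 0.05, -0.13 and 0.05 and were not called with or without that replicate. The neutrophil sum also differed here, at 525 to 2000 CPM in the 6 other MHCIIhi replicates and 6050 to 20400 CPM in MHCIIlo. Of 3 tested B and plasma cell markers 0 were called, but all 3 had an unadjusted p under 0.05 by edgeR (list median 2.39). The part of neither marker set was tested.

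Between Ly6Clo MHCIIhi and Ly6Chi MHCIIlo cells, Fcgr4 and Fcgr2b were higher and Fcgr3 was lower, so 3 of 5 were called where 43.8% of 5197 genes were, 21.6% higher and 22.2% lower. Fcgr4 was at 186 to 764 CPM against 81.5 to 414 CPM and differed by 1.23 (SE 0.21, adjusted p = 1.86e-05). Every Ly6Clo MHCIIhi replicate lay above the Ly6Chi MHCIIlo mean. The neutrophil sums of these 2 populations did not overlap, nor did the dendritic cell sums (13.6 to 68.3 CPM in Ly6Chi MHCIIlo), and their part was not tested. Of 3 tested B and plasma cell markers 0 were called (list median 1.07). Fcgr3 was at 744 to 1430 CPM against 1020 to 1820 CPM and differed by -0.29 (SE 0.09, adjusted p = 0.0106), with 9 of 16 replicates below all of Ly6Chi MHCIIlo. Fcgr2b differed by 0.33 (SE 0.10, adjusted p = 0.0112). Without the count filter neither Fcgr2b (adjusted p = 0.152) nor Fcgr3 (adjusted p = 0.0823) was called, and Fcgr2b was not in 1 fit of all 8 groups (adjusted p = 0.0532). In ctrl replicates alone Fcgr3 was at -0.15 and not called (adjusted p = 0.429), and Fcgr1 was called (0.55, adjusted p = 0.0262), which made 3 higher and 0 lower.

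Between Ly6Clo MHCIIlo and Ly6Chi MHCIIhi cells, 1 of 5 was called, where 25.4% of 3542 genes were, 12.8% higher and 12.6% lower. Fcgr2b was lower in Ly6Clo MHCIIlo, at 401 to 608 CPM against 146 to 1330 CPM (-0.71, SE 0.21, adjusted p = 0.017). The neutrophil sums, 5510 to 28100 CPM against 525 to 2000 CPM without Ly6Chi MHCIIhi ctrl replicate 1, did not overlap. All 3 tested B and plasma cell markers were called lower in Ly6Clo MHCIIlo (list median -2.60). The sums of the whole marker list overlapped, at 58.6 to 4470 CPM against 80.2 to 14800 CPM. The part of neither marker set was tested. Without Ly6Chi MHCIIhi ctrl replicate 1 the Fcgr2b difference was -0.92 (adjusted p = 2.76e-06), and Fcgr4 (-0.80, adjusted p = 0.0299) and Fcer1g (-0.46, adjusted p = 0.00307) were also called. Without ctrl replicate 4 Fcgr2b was not called (adjusted p = 0.0796) and the count was 0. In ctrl replicates alone 0 of 5 were called, where 31 of 3273 genes were. There Fcgr2b, Fcgr4 and Fcer1g differed by -0.36, -0.21 and -0.00, and Fcgr1 and Fcgr3 by 0.49 and 0.17. The remaining pairs share a level of MHC class II. Ly6Clo against Ly6Chi gave 0 of 5 called by edgeR among MHCIIhi cells, where 17.4% of 4940 genes were, and DESeq2 called 0. An unadjusted p under 0.05 was found for 1 of 5 there, against 30% of genes. Among MHCIIlo cells edgeR called 0 of 5, where 39% of 3837 genes were called, and DESeq2 called 1, Fcgr2b (adjusted p = 0.0447). There 2 of 5 had an unadjusted p under 0.05, against 46.3% of genes. In MHCIIhi, Fcgr3 differed by -0.15 and, without ctrl replicate 1, by -0.29 (adjusted p = 0.0442). In MHCIIlo, Fcgr2b, Fcgr3 and Fcer1g differed by -0.29, -0.25 and -0.25 (adjusted p = 0.0562, 0.0945 and 0.11), and with TMM taken over all replicates, which moved the median of all genes by -0.10, they differed by -0.39, -0.35 and -0.36 and were called.

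By mean level the order was Ly6Clo MHCIIhi, Ly6Chi MHCIIhi, Ly6Chi MHCIIlo, Ly6Clo MHCIIlo for Fcgr4 (384 ± 121, 261 ± 195, 167 ± 108 and 152 ± 34.8 CPM; SD, n = 16, 7, 8 and 8). For Fcgr2b it was Ly6Chi MHCIIhi, Ly6Clo MHCIIhi, Ly6Chi MHCIIlo, Ly6Clo MHCIIlo (970 ± 441, 915 ± 144, 734 ± 188 and 535 ± 63.8 CPM). For Fcgr3 Ly6Chi MHCIIlo came first, at 1310 ± 292 CPM, then Ly6Chi MHCIIhi (1180 ± 465), Ly6Clo MHCIIhi (1070 ± 195) and Ly6Clo MHCIIlo (986 ± 143). Without ctrl replicate 1, Ly6Chi MHCIIhi averaged 289 ± 198 CPM for Fcgr4, 1110 ± 272 CPM for Fcgr2b and 1320 ± 295 CPM for Fcgr3 (SD, n = 6), which left the first 2 orders as they were and put it first for Fcgr3. Neighbours in the orders with all replicates were not called different, except Fcgr2b between Ly6Clo MHCIIhi and Ly6Chi MHCIIlo. With DESeq2 size factors the last 2 places changed over for Fcgr4 and Fcgr3. Fcgr4 then averaged 163 in Ly6Clo MHCIIlo and 159 in Ly6Chi MHCIIlo, and Fcgr3 1050 in Ly6Clo MHCIIlo and 1030 in Ly6Clo MHCIIhi. For Fcer1g 3 populations averaged 4620 to 4780 CPM and Ly6Clo MHCIIlo 3480 ± 457 CPM, and without ctrl replicate 1 Ly6Chi MHCIIhi averaged 5270 ± 1170 CPM. For Fcgr1 3 averaged 129 to 158 CPM and Ly6Clo MHCIIlo 101 ± 21.1 CPM, and Ly6Chi MHCIIhi without that replicate 150 ± 77.2 CPM.

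The ratio of Fcgr3 to Fcgr2b averaged lower in the MHCIIhi than in the MHCIIlo populations. This ratio was not in the plan, which listed the summed ratio and that of Fcgr4. As Fcgr3 differed by -0.00 between the Ly6Clo populations, the ratio there mostly repeats the Fcgr2b difference. As log2 of CPM + 1, it was 0.22 ± 0.19 (SD, n = 16; -0.13 to 0.46) in Ly6Clo MHCIIhi and 0.88 ± 0.21 (SD, n = 8; 0.57 to 1.19) in Ly6Clo MHCIIlo. In Ly6Chi cells it was 0.39 ± 0.34 (SD, n = 7) in MHCIIhi and 0.85 ± 0.16 (SD, n = 8; 0.62 to 1.15) in MHCIIlo, and 0.26 ± 0.10 (SD, n = 6; 0.14 to 0.39) in MHCIIhi without ctrl replicate 1. The MHCIIhi and MHCIIlo ranges did not overlap in Ly6Clo cells, nor in Ly6Chi cells once that replicate, at 1.12, was left out. The summed activating receptors over Fcgr2b stood at 0.78 ± 0.38 and 0.80 ± 0.19 in the MHCIIhi populations and at 1.13 ± 0.15 and 1.21 ± 0.20 in the MHCIIlo ones, with overlapping ranges, and at 0.66 ± 0.21 (SD, n = 6) in Ly6Chi MHCIIhi without ctrl replicate 1, which alone was at 1.53. Fcgr4 over Fcgr2b went another way, and was -1.29 ± 0.32 in Ly6Clo MHCIIhi and -1.91 ± 0.87, -2.28 ± 0.61 and -1.83 ± 0.49 in Ly6Chi MHCIIhi (-2.11 ± 0.73 without ctrl replicate 1), Ly6Chi MHCIIlo and Ly6Clo MHCIIlo. These ratios are descriptions without a test, and their absolute size depends on how each gene was counted. Fcgr3 had the highest CPM of the summed genes in every population, so the summed ratio follows it most. Differences of the summed ratio between populations therefore also depend on how each gene was counted.

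**Figure D3:**
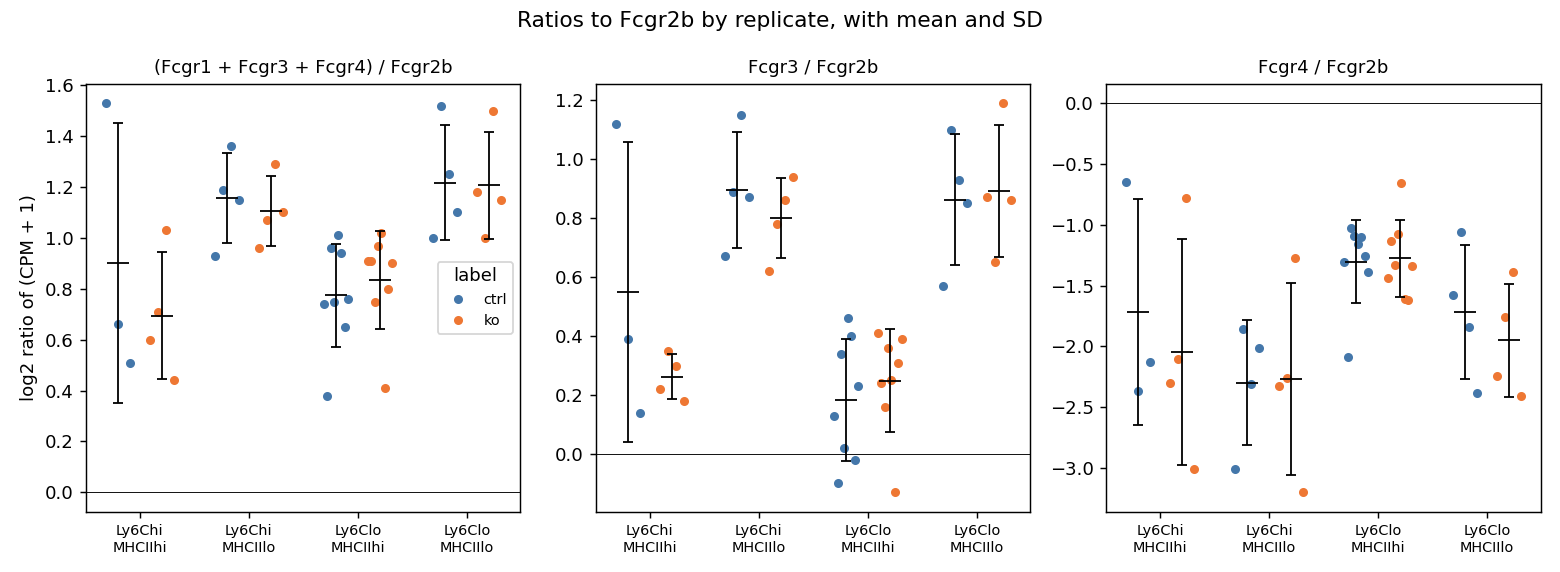
Log2 ratio of CPM + 1 of activating receptor genes to Fcgr2b in each replicate, blue for ctrl and orange for ko, with mean and SD. Fcgr3 over Fcgr2b reached at most 0.46 in Ly6Clo MHCIIhi and was at least 0.57 in Ly6Clo MHCIIlo.

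Labelled ko was then compared with labelled ctrl within each population. None of the 20 differences was called by edgeR, where 0%, 0.0756%, 0% and 0.0314% of genes were in Ly6Chi MHCIIhi, Ly6Chi MHCIIlo, Ly6Clo MHCIIhi and Ly6Clo MHCIIlo, and DESeq2 called none either. An unadjusted p under 0.05 was found for 7 of 20, namely 2, 3, 2 and 0 of 5 in that order, against 6.98%, 11.2%, 5.23% and 4.27% of all genes. Of the 20, 19 were above 0, the exception being Fcgr4 in Ly6Clo MHCIIlo (-0.06), while 51.1%, 48.6%, 48.1% and 52.5% of all genes were. The 5 genes share replicates and, within a population, one scaling, so these 19 are not separate observations. The median over the 5 genes was 0.75, 0.53, 0.20 and 0.14 in the 4 populations, against 0.01, -0.02, -0.01 and 0.01 over all genes tested.

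In Ly6Chi MHCIIhi, Fcgr1 was at 13.3, 44.2 and 104 CPM in ctrl replicates 1, 3 and 4, on 1, 2 and 24 counts, and at 193, 155, 270 and 136 CPM in ko replicates 1 to 4. The groups did not overlap, and the difference was 1.25 (SE 0.44, adjusted p = 0.709). Fcgr2b was at 146, 574 and 1130 CPM in ctrl and 1270, 1180, 1160 and 1330 CPM in ko (0.77, SE 0.40, adjusted p = 0.709). Fcgr3 and Fcer1g also had every ko replicate above every ctrl one, at 1430 to 1510 against 318 to 1240 CPM and at 5670 to 6170 against 1310 to 5230 CPM. The share of all genes that separated in this way was not counted, so the separation is only a description. In all 4 genes ctrl replicate 4, the deepest of its group, was the one nearest to ko, and the other 2 held 78264 and 34362 counts. Without ctrl replicate 1 the 5 differences were 0.94, 0.35, 0.40, 0.54 and 0.37 for Fcgr1, Fcgr2b, Fcgr3, Fcgr4 and Fcer1g, all with an adjusted p of at least 0.934. Without ctrl replicate 4 they were 2.35, 1.41, 1.06, 1.24 and 1.02, with an adjusted p of at least 0.149.

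In Ly6Chi MHCIIlo, Fcgr2b was at 662, 633, 512 and 558 CPM in ctrl replicates 1 to 4 and at 1000, 689, 999 and 820 CPM in ko replicates 1 to 4. Fcgr3 was at 1050, 1170, 1140 and 1020 CPM in ctrl and at 1550, 1180, 1820 and 1570 CPM in ko. For both genes every ko replicate lay above every ctrl one, ko replicate 2 only just. Here too the share of all genes that did so was not counted. The differences were 0.53 (SE 0.17, adjusted p = 0.258) and 0.44 (SE 0.16, adjusted p = 0.317). Fcgr1 (0.69), Fcgr4 (0.74) and Fcer1g (0.33) overlapped between the labels. Fcgr4 in ko replicate 3 was at 414 CPM against 88.2 to 199 CPM in the other ko replicates, and without it the difference was 0.20.

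In Ly6Clo MHCIIhi, with 8 replicates a side, Fcer1g was at 3630, 4560 and 4960 CPM in ctrl and 4790, 5080 and 5910 CPM in ko (lowest, median and highest). All 8 ko replicates were above the ctrl mean and 6 above every ctrl replicate. The difference was 0.25 (SE 0.07, unadjusted p = 0.00223, adjusted p = 0.888 by edgeR). The other 4 differed by 0.14 to 0.32 and overlapped. In Ly6Clo MHCIIlo the 5 differences ran from -0.06 to 0.20, all with an adjusted p of 0.999. Whether the difference between labels varied with population was tested by the interaction over 39 replicates, in which 0 of 5 were called by edgeR (adjusted p = 0.755 to 0.908), none had an unadjusted p under 0.05 (6.66% of genes did), 0.0663% of 6032 genes were called, and the DESeq2 likelihood ratio test called 0 of 5.

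Barcodes moved with the labels. In the 3 populations other than Ly6Clo MHCIIhi, every ctrl library had an AT-rich sample barcode (at most 1 G or C of 6 bases) and every ko library a GC-rich one, so for those populations the barcode and the label cannot be told apart. Ly6Clo MHCIIhi is different, since both classes occur under both labels. With the first library of each replicate and class in the model, the 5 ko differences were 0.10 to 0.32 (adjusted p of at least 0.906) and the class effect on them was -0.08 to 0.13 (adjusted p = 0.727 to 0.981). Among these first libraries, replicates 1 to 4 were AT-rich and replicates 5 to 8 GC-rich under both labels. The class therefore cannot be told apart from these sets of replicates. Over all genes edgeR called it for 87 of 4949. Within the AT-rich class Fcer1g was at 4980 ± 125 CPM in ko and 4040 ± 492 CPM in ctrl (SD, n = 4 each), and within the GC-rich class at 5320 ± 293 and 4660 ± 221 CPM (SD, n = 4 each). Where 1 replicate had 2 libraries, the median difference between them ran from 0.10 for Fcer1g to 0.28 for Fcgr1 over 8 pairs. No red cell marker was called by edgeR between the labels in any population, where 4 of 4 tested had an unadjusted p under 0.05 in each. Their sums were 59.6 to 1330 CPM in ctrl and 1520 to 6530 CPM in ko in Ly6Clo MHCIIlo, 28.7 to 1560 and 431 to 11400 CPM in Ly6Clo MHCIIhi, and 39.3 to 961 and 56.1 to 2200 CPM in Ly6Chi MHCIIlo, and in Ly6Chi MHCIIhi ctrl replicate 1 held the highest. B and plasma cell markers were lower in ko by list median, and edgeR called none. In Ly6Clo MHCIIhi 3 of 3 tested had an unadjusted p under 0.05 (median -1.90). The sums there were 56.8 to 28100 CPM in ctrl and 64.5 to 4840 CPM in ko. So did 1 of 1 in Ly6Chi MHCIIlo (-2.16) and in Ly6Clo MHCIIlo (-3.58), and 0 of 4 in Ly6Chi MHCIIhi (-0.32). The part of either marker set was not tested.

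**Figure D4:**
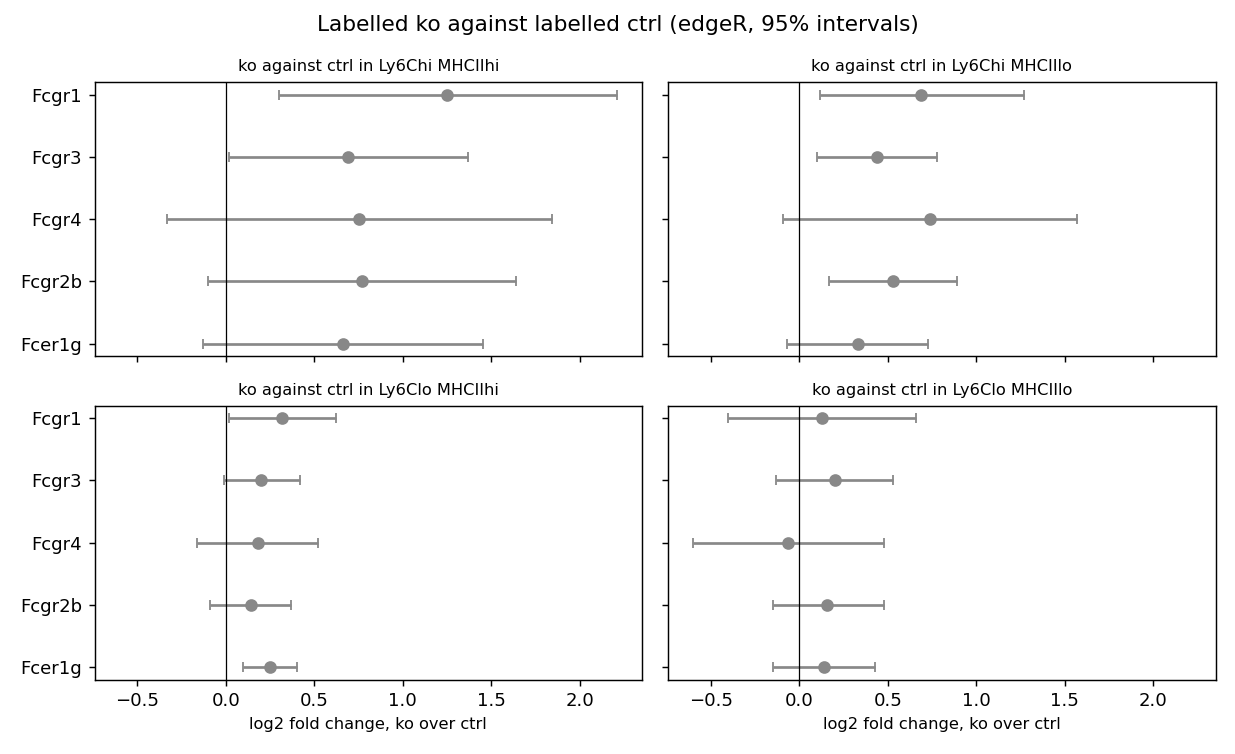
Log2 fold change of each gene, labelled ko over labelled ctrl, with its 95% interval in each population; grey marks an adjusted p of 0.05 or more, which holds for all 20. All points but Fcgr4 in Ly6Clo MHCIIlo (-0.06) lie above 0.

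Across all 39 replicates, Fcgr2b and Fcer1g were closest to each other among the 5, with a Pearson r of 0.92 on log2(CPM + 1), 0.87 on deviations from the group means and 0.85 without Ly6Chi MHCIIhi ctrl replicate 1. Fcgr3 and Fcgr4 were least alike (0.33, and 0.22 without it). Of 5347 other genes with a mean of at least 20 CPM, the 3 most like Fcgr4 were B2m, the light chain of MHC class I (0.85), Gbp7, an interferon-induced GTPase (0.83), and Cd74 (0.81). Those most like Fcgr3 were Cndp2, a dipeptidase (0.89), Cstb, which inhibits cathepsins (0.87), and Ccr1, a chemokine receptor (0.87). Fcgr2b came closest to Fcer1g (0.92), Bcl2a1d (0.91) and Atox1 (0.90), Fcer1g to Cox6b1 (0.92), Fcgr2b (0.92) and Uqcrq (0.90), and Fcgr1 to Fcgr2b (0.84), Uqcrq (0.84) and Atp6v1f (0.83). These points share libraries and depth, and the coefficients are descriptions.

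Of the genes that act with these receptors, 94 of the 104 listed were in the table, in 6 lists, and their counts are read beside the share over all genes (27.6% called, 13.3% higher and 14.3% lower). In Ly6Clo MHCIIhi against Ly6Clo MHCIIlo, 3 of 10 tested interferon-gamma response genes were higher and none lower, with a list median of 0.79: Ciita, which switches on MHC class II genes (2.33, SE 0.24, adjusted p = 2.05e-08), Gbp3 (1.01, SE 0.36, adjusted p = 0.0336) and Gbp7 (0.71, SE 0.20, adjusted p = 0.00834). The cells were sorted on MHC class II, so the call of Ciita is not separate from the sort. Of 20 tested ITAM adaptors and kinases 3 were higher and 1 lower: Fyn rose from 27.5 to 75.3 CPM (1.34, adjusted p = 0.000779), Prkcd by 0.37 and Tyrobp, the adaptor DAP12, by 0.23, while Syk fell by 0.31 (adjusted p = 0.0372). Among inhibitory phosphatases and brakes 0 of 10 were higher and 3 lower, namely Cbl (-0.73), Dok3 (-0.61) and Inpp5d, which encodes SHIP1, the partner of Fcgr2b (-0.58, SE 0.13, adjusted p = 0.000956). Phagocytosis and oxidase genes gave 1 higher and 5 lower of 16, among them Arpc2 of the Arp2/3 complex (0.22) and Ncf1 of the NADPH oxidase (-0.54, adjusted p = 0.000171). Fcgrt, the neonatal Fc receptor that recycles IgG, was higher, at 120 ± 36.9 against 44 ± 17.2 CPM (SD, n = 16 and 8; 1.32, adjusted p = 2.01e-05), and Clec4d, a lectin that pairs with the gamma chain, was lower (-1.28, adjusted p = 6.56e-06). The interferon-gamma list differed elsewhere. Against Ly6Chi MHCIIlo, 2 of 12 were higher and 2 lower in Ly6Clo MHCIIhi (median -0.16, 43.8% of all genes called). In Ly6Clo MHCIIlo 0 of 8 were higher and 4 lower (-1.31, 39%). Against Ly6Chi MHCIIhi, Ly6Clo MHCIIlo had 0 of 9 higher and 6 lower (-1.44, 25.4%), and Ly6Clo MHCIIhi 1 of 12 higher and 0 lower (-0.36, 17.4%). Ly6Chi MHCIIhi against MHCIIlo had 0 of 12 called (0.07, 3.23%).

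Of 3 tested partners of the gamma chain, 1 was higher and 1 lower in Ly6Clo than in Ly6Chi MHCIIlo cells, where 39% of all genes were called. Clec4n (Dectin-2) was higher, at 927 ± 111 against 286 ± 60.1 CPM (SD, n = 8 each; 1.84, adjusted p = 9.2e-11), and Clec4e (Mincle) lower, at 351 ± 79.2 against 1060 ± 162 CPM (SD, n = 8 each; -1.45, adjusted p = 1.3e-08). In the same comparison, 4 of 19 ITAM adaptors and kinases were higher and 8 lower, with Blnk (2.87, adjusted p = 4.67e-07) and Lat2 (0.81) among the higher and Lcp2, which encodes SLP-76 (-1.08, adjusted p = 9.67e-06), and the Src-family kinase Fgr (-0.94) among the lower. Syk was lower in Ly6Clo MHCIIhi than in Ly6Chi MHCIIlo, at 179 ± 40.2 against 297 ± 52.9 CPM (SD, n = 16 and 8; -0.73, adjusted p = 3.64e-06). In the 4 comparisons of ko with ctrl, edgeR called 0 of 235 tests of genes in the 6 lists, and 14 had an unadjusted p under 0.05, where 4.27% to 11.2% of all genes did.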

How the data were processed

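The deposited table holds whole-number counts per gene symbol for 48 libraries, and no normalization by the authors is recorded. The build was GRCm38, with R 3.4.4 and DESeq2 1.18.1, per the submitters' processing notes. No source used here names the aligner or counter or says whether molecular identifiers were counted. The row z (127 counts, 0.000967%) names no gene and was dropped from fits.

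Libraries of 1 replicate number were added, and libraries under 0.1 of the median total (28006.25 counts) left out. Levels are CPM with TMM over 39 replicates. Tests were edgeR 4.0.16 quasi-likelihood F tests in R 4.3.3 (filterByExpr, minimum count 10 and total 15; TMM within a comparison; genotype in the model for populations), adjusted by Benjamini-Hochberg over all genes. All 5 genes passed the filter in all 10 comparisons, so the permutation test planned for a filtered gene was not needed. The fits were tested on simulated data: of 100 genes changed by 1 on the log2 scale, 9% were recovered in ko against ctrl in Ly6Chi MHCIIhi (3541 genes), 40% in Ly6Chi MHCIIlo (3987 genes), 85% in Ly6Clo MHCIIhi (5712 genes) and 59% in Ly6Clo MHCIIlo (3238 genes). Between MHCIIhi and MHCIIlo, 60% were recovered in Ly6Chi cells (4150 genes) and 90% in Ly6Clo cells (4226 genes). Another 100 genes were changed by 2 in the same simulation. Changed genes were drawn at random from those past the filter, and all genes had 1 common dispersion. The percentages therefore need not hold for the 5 Fc receptor genes or for data with fewer changed genes.

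The genes and lists were chosen with earlier results of these data known. Named are the 5 genes, Ly6c2, Cd74 and Ccl17, the 3 nearest genes of each by correlation and, from each list and population comparison, at most 3 genes per direction with the largest called fold and at least 20 CPM; not all of these are printed. Promoter windows are from RefSeq (GRCm38.p6), matched by symbol for 5 of 5. Alternatives were DESeq2 1.42.0 size factors and its test, other TMM, filter and library rules, a replicate block, joint fits, ctrl only and leaving out each replicate. A second promoter motif that was searched for is not reported here.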

Additional observations from a re-analysis of the deposited data

Results flagged for a closer look

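In 35 sets of 4 to 8 replicates (5 genes in 7 groups) the highest or lowest replicate was compared with its nearest neighbour by Dixon's ratio, which chance passes in about 1 in 20 sets, and 2 sets passed. Both were Fcgr4 in Ly6Clo MHCIIhi. In ctrl, replicate 2 was lowest at 186 CPM, with the next at 330 CPM, on 11 counts. In ko, replicate 5 was highest at 764 CPM, with the next at 451 CPM, on 613 counts. Without ctrl replicate 2 the Fcgr4 difference from Ly6Clo MHCIIlo was 1.25, and without ko replicate 5 it was 1.13 (adjusted p = 1.22e-06 and 3.21e-07 by edgeR). Without ko replicate 5 the Fcgr4 difference between ko and ctrl was -0.00 in place of 0.18.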

How the results depend on the processing

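Of the counts of Fc receptor genes called, 147 of 156 with 1 replicate left out and 83 of 98 under other settings stayed within 1.5 times. No count moved for ko against ctrl or the interaction. Over 71 settings of the ko comparisons none called any of the 5 genes (smallest adjusted p 0.0793 over the edgeR and DESeq2 fits). Of 355 differences 5 changed sign. In Ly6Chi MHCIIhi against MHCIIlo the count of 0 became 1 without libraries under 100000 counts, and in Ly6Clo MHCIIhi against MHCIIlo the count of 4 became 2 in ctrl only. In Ly6Clo against Ly6Chi MHCIIhi, 0 became 1 with no count filter and 3 without libraries under 100000 counts. In Ly6Clo against Ly6Chi MHCIIlo, 0 became 3 with TMM over all replicates and 1 each with no count filter, the DESeq2 test and 1 fit with barcode class. In Ly6Clo MHCIIhi against Ly6Chi MHCIIlo, 3 became 1 with no count filter. In Ly6Clo MHCIIlo against Ly6Chi MHCIIhi, 1 became 2 with no count filter, 0 with all libraries kept, 4 without libraries under 100000 counts and 0 in ctrl only. The cause was not tested. Leaving out libraries under 100000 counts kept ctrl replicate 4 as the only ctrl replicate of Ly6Chi MHCIIhi, beside its ko replicates.

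With 1 replicate left out, the counts ran from 0 to 1 in Ly6Chi MHCIIhi against MHCIIlo (1 without ctrl replicate 1), 4 to 4 in Ly6Clo MHCIIhi against MHCIIlo, 0 to 1 in Ly6Clo against Ly6Chi MHCIIhi (1 without Ly6Chi ctrl replicate 1 or ko replicate 3, where Fcgr4 was 0.87, adjusted p = 0.00177), 0 to 2 in Ly6Clo against Ly6Chi MHCIIlo (2 without Ly6Chi ctrl replicate 3, 1 without Ly6Clo ctrl replicate 3), 3 to 4 in Ly6Clo MHCIIhi against Ly6Chi MHCIIlo, and 0 to 3 in Ly6Clo MHCIIlo against Ly6Chi MHCIIhi (3 without ctrl replicate 1, 2 without ko replicate 4 or Ly6Clo ctrl replicate 2, 0 without ctrl replicate 4).

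Signs changed mostly in differences near 0. In Ly6Chi MHCIIhi against MHCIIlo, Fcgr1 and Fcer1g became -0.02 and -0.06 with TMM over all replicates, -0.04 and -0.07 with no count filter, -0.35 and -0.13 in ctrl only, -0.09 and -0.02 in 1 fit of 8 groups and -0.10 and -0.04 with barcode class added; Fcer1g was -0.05 with all libraries kept, and Fcgr3 0.04 without libraries under 100000 counts. Fcgr3 in Ly6Clo MHCIIhi against MHCIIlo became 0.11 with TMM over all replicates, 0.10 with no count filter, 0.01 without libraries under 100000 counts, 0.00 with first libraries only, 0.02 in 1 fit and 0.05 with barcode class. In Ly6Clo against Ly6Chi MHCIIhi, Fcgr2b became 0.00 with all libraries kept, Fcgr2b and Fcgr3 0.29 and 0.14 in ctrl only, and Fcer1g -0.23 (adjusted p = 0.0145) without libraries under 100000 counts. In Ly6Clo against Ly6Chi MHCIIlo, Fcgr4 became -0.06 with TMM over all replicates, -0.08 with no count filter, -0.01 in 1 fit and -0.02 with barcode class, and Fcgr1 0.16 in ctrl only. In Ly6Clo MHCIIlo against Ly6Chi MHCIIhi, Fcgr1 and Fcgr3 became 0.49 and 0.17 in ctrl only. TMM over all replicates moved the median of all genes by 0.13 in Ly6Clo MHCIIhi against MHCIIlo and 0.20 in ko against ctrl in Ly6Chi MHCIIhi, and no count filter by up to 0.30.

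Left-out replicates changed signs within these ranges: -0.11 to 0.15 (Fcgr1), -0.23 to 0.00 (Fcgr3) and -0.06 to 0.19 (Fcer1g) in Ly6Chi MHCIIhi against MHCIIlo; -0.04 to 0.04 (Fcgr3) in Ly6Clo MHCIIhi against MHCIIlo; -0.28 to 0.01 (Fcgr2b) and -0.11 to 0.12 (Fcer1g) in Ly6Clo against Ly6Chi MHCIIhi; -0.07 to 0.34 (Fcgr4) in Ly6Clo against Ly6Chi MHCIIlo; -0.02 to 0.11 (Fcer1g) in Ly6Clo MHCIIhi against Ly6Chi MHCIIlo; and, for ko against ctrl, -0.01 to 0.26 (Fcgr1) and -0.24 to 0.07 (Fcgr4) in Ly6Clo MHCIIlo and -0.00 to 0.24 (Fcgr4) in Ly6Clo MHCIIhi.

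With the replicate number as a block, the count was 1 in Ly6Chi MHCIIhi against MHCIIlo (Fcgr4 0.75, adjusted p = 0.011) and 2 in Ly6Clo MHCIIlo against Ly6Chi MHCIIhi (Fcgr4 -0.73, adjusted p = 0.0224), and Fcgr2b lost its call in Ly6Clo MHCIIhi against Ly6Chi MHCIIlo (0.27, adjusted p = 0.127); the block changed no other call. The numbers were not shown to pair the samples: deviations from the group means on log2(CPM + 1) correlated above 0.1 in 4 of 7 same-numbered pairs (0.0777 to 0.255) in Ly6Chi MHCIIhi against MHCIIlo. A second measure, edgeR log CPM, was tried after the data and the block's calls had been seen, and gave 6 of 7 (0.0959 to 0.277). No comparison had every pair above 0.1 by either.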
